A study of Mus musculus with 18 samples.

Results

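The AP-1 genes Fos, Jun and Fosl1 were examined as windows of open chromatin in mouse muscle cells. Peaks were taken where the summit lay in chr12:86770000-86870000 (Fos), chr4:94660000-94770000 (Jun) or chr19:5420000-5480000 (Fosl1), all in the mm9 build. The 4 ATAC-seq peak lists held 187 such peaks of 400115 in all, which merged into 57 regions of 141979. Peaks that overlapped by 1 bp or more in any of the lists were joined into 1 region, and regions were numbered along each window, 25 for Fos, 19 for Jun and 13 for Fosl1.

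ATAC-seq inserts sequencing adapters into accessible DNA with a transposase. The groups were myocytes from MyoD-null mice and from wild-type mice, both after 24 h of myogenic differentiation, and proliferating myoblasts from MyoD-null mice and from wild-type mice. MyoD is a transcription factor that drives cells into the skeletal muscle lineage. Each group had 3 samples, deposited as 1 merged peak list, so no value has an error between replicates and no group difference could be tested. The other 6 samples were not analysed here. They were RNA-seq of C2C12 cells at 24 h of differentiation, with CTCF knocked down (3) or not (3).

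The genotype written into the peak names was opposite to the label in both myocyte lists. The list deposited as MyoD-null myocytes has peak names that read WT, and the list deposited as wild-type myocytes has names that read MKO, the titles' term for MyoD-null. Names and labels had the same genotype in both myoblast lists. Myocyte lists are therefore named by their labels, as "deposited as" MyoD-null or wild type, and the reading by peak names is given at the end. Both myocyte lists carry a name prefix that the myoblast lists lack, so stage and processing cannot be told apart. Since peaks were not assigned to genes, the muscle identity of the cells was not checked against marker genes.

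AP-1 is a family of transcription factors that bind DNA as dimers of basic leucine zipper proteins. Fos and Fosl1, which encodes Fra-1, belong to the Fos family and need a partner such as Jun, whereas Jun can also pair with itself. Fos and Jun are immediate early genes, switched on within minutes by serum and growth factors, and forced expression of either is known to hold back the differentiation of cultured mouse myoblasts. In the RefSeq gene order of GRCm38.p6, Fos lies between Tmed10 and Jdp2, followed by Batf. Jdp2 and Batf encode other basic leucine zipper proteins. Jun lies between Mysm1 and Fggy, and Fosl1 between AI837181 and Ccdc85b. Each window can therefore hold regions that belong to a neighbour, and each region is described by its position alone.

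The promoters of Fos and Jun are shown because the windows are named for these genes and to mark where a few set motifs lie before each start. Sites of other types or spellings, and sites more than 250 bases before the start, are not marked. An unmarked stretch is therefore no sign that a site is lacking. The 250 bases before the RefSeq start were at chr12:85473640-85473889 on the plus strand for Fos and at chr4:95052223-95052472 on the minus strand for Jun, both in GRCm38.p6 and written 5′ to 3′. No peak was placed on them, since the peaks are in another build. Capitals mark matches to the motifs searched, which were TGANTCA (the AP-1 site), TGACGT (the core of the cAMP response element), the CArG box (the serum response factor site), CANNTG (the E-box) and CAGCTG (an E-box form that MyoD prefers), on both strands. CAGCTG is also a CANNTG match.
Fos: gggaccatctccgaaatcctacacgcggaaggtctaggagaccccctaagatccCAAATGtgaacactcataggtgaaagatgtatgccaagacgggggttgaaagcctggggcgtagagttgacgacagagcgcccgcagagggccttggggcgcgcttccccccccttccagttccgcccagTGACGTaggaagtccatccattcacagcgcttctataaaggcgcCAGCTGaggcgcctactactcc
Jun: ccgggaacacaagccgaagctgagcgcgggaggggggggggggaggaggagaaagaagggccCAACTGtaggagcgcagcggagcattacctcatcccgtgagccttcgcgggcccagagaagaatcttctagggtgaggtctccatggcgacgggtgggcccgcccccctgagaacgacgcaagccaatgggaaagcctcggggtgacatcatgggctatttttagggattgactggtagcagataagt
The Fos promoter held 1 TGACGT, from -66 to -61 relative to the start, and 2 E-boxes, from -196 to -191 and from -22 to -17. The E-box nearest the start had the letters CAGCTG. The Jun promoter held 1 match, an E-box from -188 to -183. Of 32817 RefSeq promoters of that length, TGACGT was present in 6.46%, CANNTG in 66.2%, CAGCTG in 13.0%, TGANTCA in 6.75% and the CArG box in 1.47%. These are matches of letters and were not compared with occupancy.

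The lists held 88233 peaks for myocytes deposited as MyoD-null, 112030 for myocytes deposited as wild type, 101755 for MyoD-null myoblasts and 98097 for wild-type myoblasts. Fold enrichment is the pileup of reads at a summit over the local background, as the authors deposited it. The genome-wide background was 5.29 to 8.54 reads per base, and at that background the lowest listed fold was 2.29 to 2.55, with 15 to 21 reads. A region missing from a list is therefore a region not listed at that depth.

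All 3 windows were open in every group. Fos had 20 peaks in myocytes deposited as MyoD-null, 20 in myocytes deposited as wild type, 22 in MyoD-null myoblasts and 23 in wild-type myoblasts. Jun had 13, 15, 10 and 14 peaks in the same lists, and Fosl1 had 12, 13, 13 and 12. Fos and Fosl1 were dense in peaks: between 0.0303% and 0.655% of all 100-kb windows held as many peaks as Fos, and between 0.388% and 0.809% of all 60-kb windows as many as Fosl1. Jun was nearer the ordinary, with as many peaks in 4.79% to 15.9% of all 110-kb windows. The peaks covered 12.0 to 16.5 kb at Fos, 6.46 to 9.45 kb at Jun and 8.80 to 10.8 kb at Fosl1. Myocytes deposited as wild type had the most at each locus. That list also covered the most genome-wide, 67.6 Mb against 51.2 to 52.1 Mb in the other lists.

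**Figure D1:**
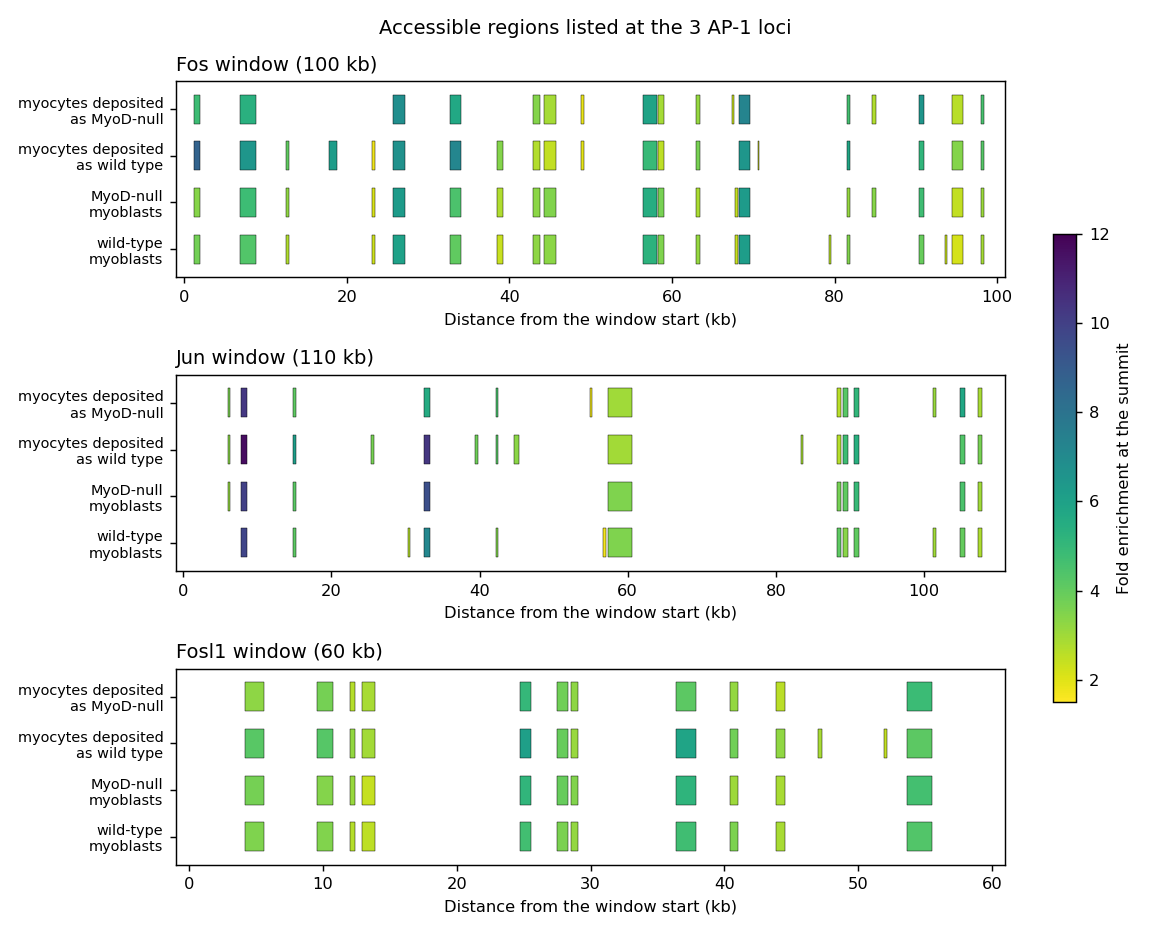
Position of every merged region along the 3 windows (distance from the window start, in kb), with 1 row per list and colour for the highest fold enrichment in that list. Each bar spans the merged region, drawn to scale, and is absent where a list has no peak. The Fosl1 row pattern is nearly the same in all 4 lists, with 11 of 13 regions in all of them, whereas single-list bars are scattered over the Jun and Fos windows.

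Of the 57 regions, 34 were in all 4 lists (59.6%), against 45.9% of all merged regions. Fosl1 had 11 of 13 in all 4 (84.6%), Fos 14 of 25 (56%) and Jun 9 of 19 (47.4%). Fosl1 thus had the most constant set of regions and Jun the least, with no test of that order. The highest fold of a region in any list had a median of 4.66 for the 34 constant regions and 2.89 for the others, so the regions missing from some list were mostly weak.

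Single-list regions made up 14 of the 57 (24.6%), against 28.9% of all merged regions. Myocytes deposited as MyoD-null held 2 of them (Fos region 15 and Jun region 10), against 3.42% of all merged regions, and myocytes deposited as wild type 8 (2 at Fos, 4 at Jun and 2 at Fosl1), against 16.3%. MyoD-null myoblasts held 0, against 5.45%, and wild-type myoblasts 4 (Fos regions 19 and 23, Jun regions 5 and 11), against 3.74%. The list with the most single-list regions here also had the most genome-wide and was the longest of the 4. Fos region 11 was listed in both myocyte lists alone, against 3.42% of all merged regions, and Fos region 16 in both myoblast lists alone, against 4.64%.

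**Figure D2:**
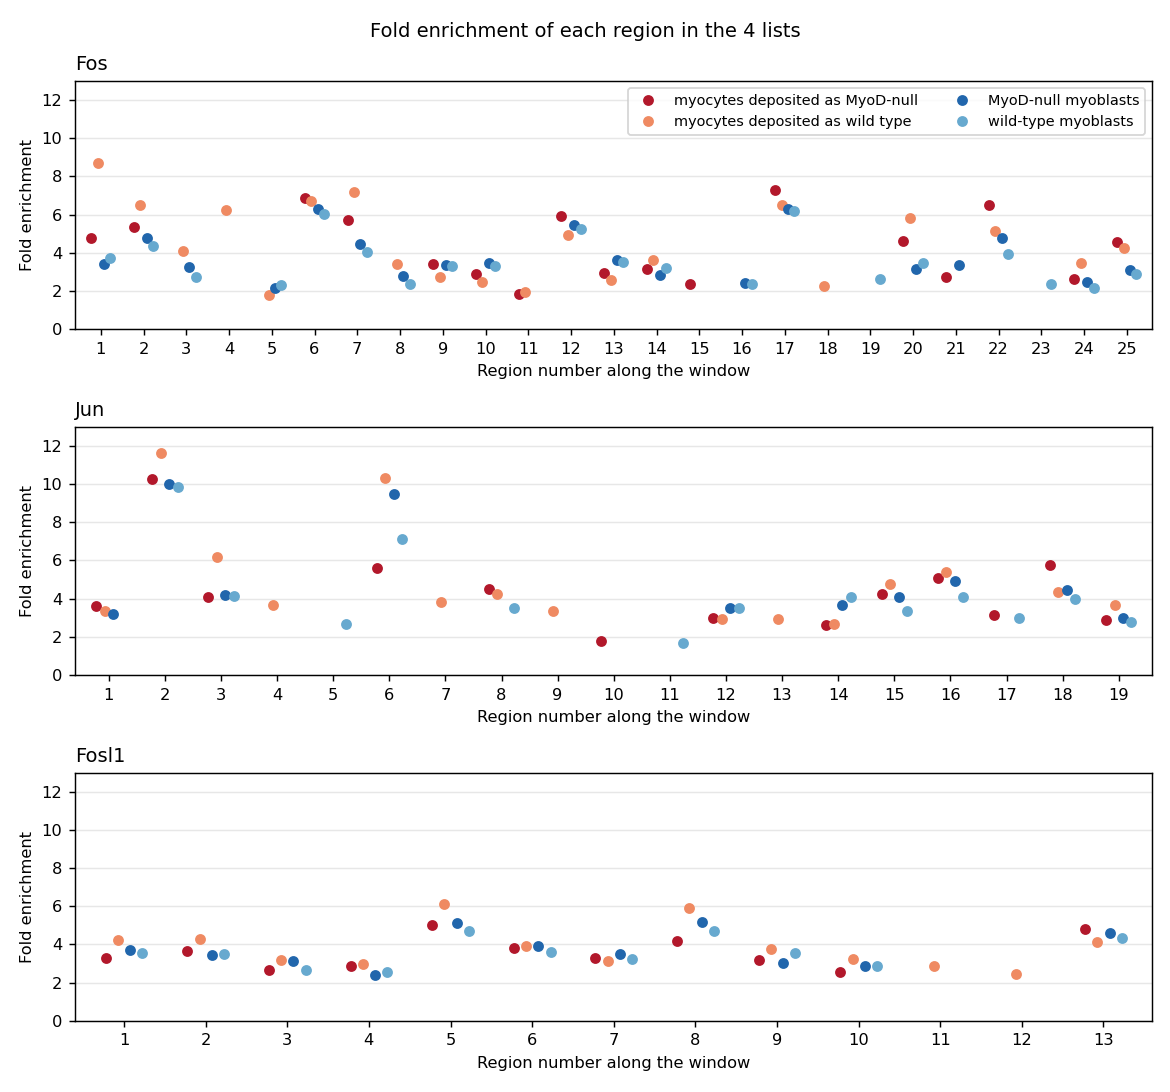
Fold enrichment of each region at its highest summit (vertical axis) by region number along the window (horizontal axis), with 1 point per list and no point where a list has no peak. Jun regions 2 and 6 carry the highest folds of the 3 loci, up to 11.6 and 10.3, and most other regions sit between 2 and 7.

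The strongest Fos regions in 3 of the lists were regions 6 and 17, and both were constant. Region 17 (chr12:86838249-86839538) had folds of 7.27 in myocytes deposited as MyoD-null, 6.49 in myocytes deposited as wild type, 6.28 in MyoD-null myoblasts and 6.18 in wild-type myoblasts. Region 6 (chr12:86795745-86797156) had folds of 6.86, 6.71, 6.29 and 6.03 in the same order of lists. On the fold scale the lists were close: the ratios of myocyte to myoblast fold were 1.05 to 1.16, and each 95% interval for counting error included 1. Divided by the genome-wide background of each list, the summit reads were 22.9, 29.4, 15.8 and 15.1 in region 17 and 27.4, 34.3, 19.8 and 20.7 in region 6, so on that scale both myocyte lists were above both myoblast lists.

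Fos region 1 (chr12:86771254-86771898) differed most with differentiation in the lists deposited as wild type. Its fold was 4.78 in myocytes deposited as MyoD-null, 8.70 in myocytes deposited as wild type, 3.40 in MyoD-null myoblasts and 3.75 in wild-type myoblasts. The summits rested on 43, 89, 42 and 40 reads in those lists. Myocytes deposited as wild type stood apart from the other 3 lists, at 2.32 times the fold of wild-type myoblasts (95% interval 1.60 to 3.50). Myocytes deposited as MyoD-null had 1.41 times the fold of MyoD-null myoblasts (0.898 to 2.21) and 0.549 times that of myocytes deposited as wild type (0.368 to 0.790). The first and last of these intervals leave out 1, and they cover counting error alone.

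Fos region 4 (chr12:86787855-86788848) was the strongest region that any list lacked. It was listed in myocytes deposited as wild type alone, with a fold of 6.23, 78 reads and the 70.7th percentile of that list. The other region of that kind at Fos, region 18 (chr12:86840532-86840760), was weak, with a fold of 2.27. The centres of regions 1, 4 and 7 lay 1.58, 18.4 and 33.4 kb from the window start. Region 7 (chr12:86802764-86804045) had folds of 5.70, 7.19, 4.46 and 4.06 in the same order of lists. In region 7 both myocyte lists were above both myoblast lists.

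The 3 regions missing from myocytes deposited as MyoD-null alone, against 4.87% of all merged regions, were all at Fos. Region 3 (chr12:86782514-86782936) had folds of 4.08 in myocytes deposited as wild type, 3.25 in MyoD-null myoblasts and 2.74 in wild-type myoblasts. Region 5 (chr12:86793066-86793426) had 1.79, 2.14 and 2.31, and region 8 (chr12:86808508-86809187) had 3.43, 2.77 and 2.39. Regions 3 and 8 were thus higher in the listed myocytes than in both myoblast lists, and region 5 was lower. Its summit stood on a local background of 28.9 to 34.3 reads per base, several times the genome-wide level.

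The remaining Fos regions that some list lacked were weak. Region 11 (chr12:86818841-86819210), in both myocyte lists, had folds of 1.85 as MyoD-null and 1.94 as wild type over backgrounds of 52.6 and 69.2 reads per base. Region 15 (chr12:86837379-86837605) had 2.38 in myocytes deposited as MyoD-null. Region 16 (chr12:86837803-86838093), just beyond it, had 2.42 in MyoD-null and 2.39 in wild-type myoblasts. Regions 15 and 16 adjoin the strong region 17, so these calls lie on its flank. Region 21 (chr12:86854596-86855125) was in the lists deposited as MyoD-null alone, with 2.76 in myocytes and 3.39 in myoblasts. Regions 19 (chr12:86849337-86849543) and 23 (chr12:86863635-86863879) had 2.61 and 2.39 in wild-type myoblasts.

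Near the far end of the Fos window, region 25 (chr12:86868014-86868402) had folds of 4.57, 4.26, 3.08 and 2.90 in myocytes deposited as MyoD-null, myocytes deposited as wild type, MyoD-null myoblasts and wild-type myoblasts. Its myocyte to myoblast ratios were 1.49 (1.01 to 2.24) as MyoD-null and 1.47 (1.01 to 2.23) as wild type. The medians of all shared regions were 1.12 and 1.27 in the same order. Region 22 (chr12:86860397-86860947) had 6.53, 5.14, 4.76 and 3.93. In both regions each myocyte list was above both myoblast lists, and in region 22 the MyoD-null list as deposited had the higher fold at each stage. The ratios of MyoD-null to wild type in region 22 were 1.21 (0.877 to 1.69) in myoblasts and 1.27 (0.967 to 1.67) in myocytes, and both intervals include 1. On summit reads over the genome-wide background the myocytes deposited as wild type were the higher, at 17.6 against 15.1. Region 14 (chr12:86832992-86833479) had 3.18, 3.64, 2.83 and 3.18. The Fos regions not named for their values, 2, 9 and 12, were in all 4 lists with folds of 2.71 to 6.49.

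Fos regions 10 and 13 had lower folds in both myocyte lists than in both myoblast lists. As MyoD-null the ratios were 0.833 (0.669 to 1.04) and 0.805 (0.602 to 1.07), and both intervals include 1. As wild type they were 0.739 (0.591 to 0.931) and 0.725 (0.540 to 0.968), and both intervals leave out 1. Region 10 (chr12:86814237-86815724) had folds of 2.90 in myocytes deposited as MyoD-null, 2.45 in myocytes deposited as wild type, 3.48 in MyoD-null myoblasts and 3.31 in wild-type myoblasts. Its summit reads were 180, 189, 156 and 134, and its local background was 61.4, 76.6, 44.1 and 39.8 reads per base. The myocytes thus had a lower fold but more reads at the summit and more reads around it. Divided by the genome-wide background of each list, the summit reads were 24.7, 30.2, 16.5 and 14.7. Region 13 (chr12:86828252-86829039) had folds of 2.93, 2.55, 3.65 and 3.52, and fewer summit reads in the myocytes, at 91, 88, 111 and 109. Its local background was 30.4, 33.8, 29.7 and 30.2 reads per base. Only when divided by the genome-wide background were its summit reads higher in the myocytes, at 12.5, 14.1, 11.7 and 12.0.

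Jun had the strongest region of the 3 loci. Region 2 (chr4:94667791-94668650) had folds of 10.3 in myocytes deposited as MyoD-null, 11.6 in myocytes deposited as wild type, 9.98 in MyoD-null myoblasts and 9.83 in wild-type myoblasts. These stood at the 98.6th to 99.6th percentile of their lists. The folds differed little, with ratios of myocytes to myoblasts of 1.03 (0.800 to 1.33) as MyoD-null and 1.18 (0.897 to 1.55) as wild type.

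Jun region 6 (chr4:94692462-94693298) differed in opposite directions. Its fold was 5.59 in myocytes deposited as MyoD-null, 10.3 in myocytes deposited as wild type, 9.47 in MyoD-null myoblasts and 7.13 in wild-type myoblasts. The reads were 40, 83, 103 and 67. The myocytes deposited as MyoD-null were the lowest list, at 0.590 times the fold of MyoD-null myoblasts (0.393 to 0.845) and 0.540 times that of myocytes deposited as wild type (0.356 to 0.787). The myocytes deposited as wild type had 1.45 times the fold of wild-type myoblasts (1.04 to 2.04), against a median of 1.27 for all shared regions. The 2 myoblast lists differed by a ratio of 1.33 (0.973 to 1.84), and that interval includes 1. Local background was 6.34 to 9.98 reads per base, close to the genome-wide level, so the direction was the same for folds and for reads over the genome-wide background.

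Jun region 12 (chr4:94717281-94720531) was the widest of the 57 regions, at 3251 bp. Its folds were 2.99, 2.95, 3.53 and 3.52 in myocytes deposited as MyoD-null, myocytes deposited as wild type, MyoD-null myoblasts and wild-type myoblasts. The summit reads were 181, 188, 164 and 163, over local backgrounds of 59.9, 63.1, 45.8 and 45.6 reads per base. As in Fos region 10, the myocytes were lower in fold and higher in reads. The fold ratios of Jun region 12 were 0.848 (0.683 to 1.05) as MyoD-null and 0.838 (0.676 to 1.04) as wild type. Both intervals include 1. Jun region 14 (chr4:94748284-94748749), by contrast, was lower in the myocytes on both scales. Its folds were 2.63, 2.69, 3.69 and 4.10, with 30, 22, 47 and 54 reads. The ratios were 0.712 (0.429 to 1.14) as MyoD-null and 0.655 (0.370 to 1.06) as wild type, so this difference is within counting error in each pair.

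**Figure D3:**
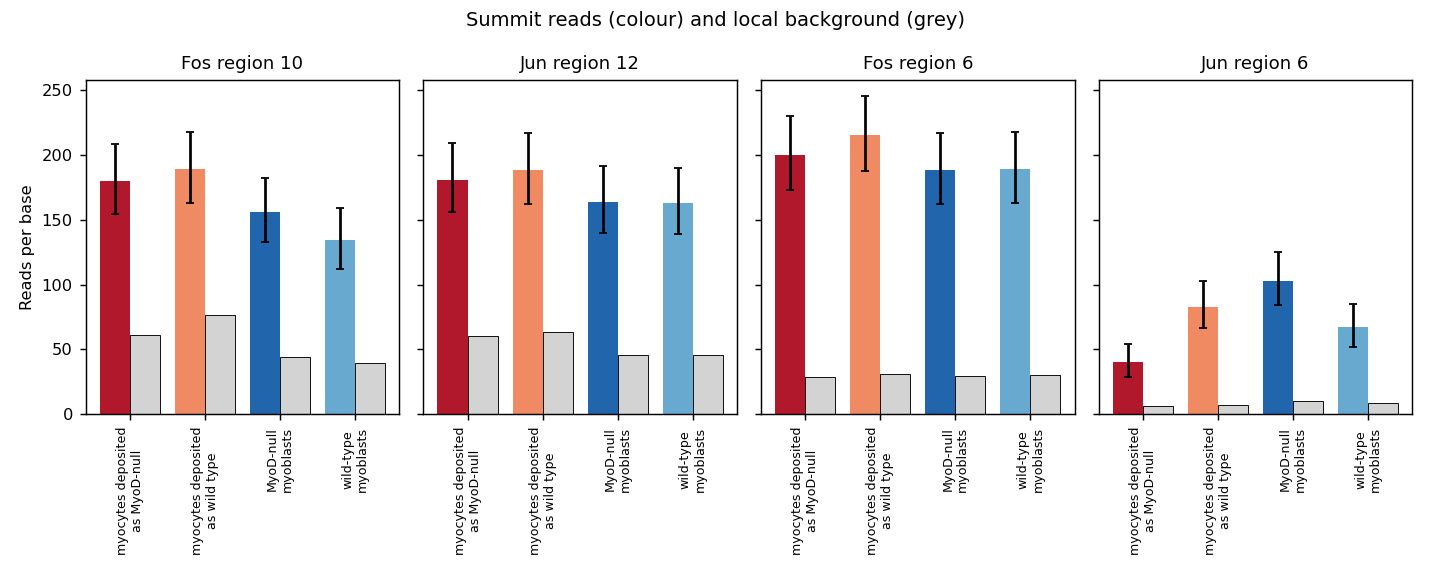
Reads per base at the summit (coloured bars, with exact 95% Poisson intervals) and in the local background (grey bars) of 4 regions, with 1 pair of bars per list. In Fos region 10 and Jun region 12 both bars are taller in the myocyte lists, in Fos region 6 the summits hold 188 to 215 reads, and in Jun region 6 the summit has 40 reads in myocytes deposited as MyoD-null against 103 in MyoD-null myoblasts.

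Jun region 3 (chr4:94674874-94675255) had a fold of 4.09 in myocytes deposited as MyoD-null, 6.20 in myocytes deposited as wild type, 4.19 in MyoD-null myoblasts and 4.14 in wild-type myoblasts, so 1 list stood above the rest. Region 18 (chr4:94764848-94765487) had 5.76, 4.37, 4.45 and 3.97 in the order MyoD-null myocytes as deposited, wild-type myocytes as deposited, MyoD-null myoblasts and wild-type myoblasts. The highest list thus changed from region to region within the window.

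Jun had 10 regions that some list lacked. Regions 4 (chr4:94685337-94685719), 7 (chr4:94699357-94699789), 9 (chr4:94704595-94705270) and 13 (chr4:94743435-94743653) were in myocytes deposited as wild type alone, with folds of 3.66, 3.82, 3.34 and 2.93 and 19 to 23 reads. Regions 5 (chr4:94690356-94690555) and 11 (chr4:94716723-94717139) were in wild-type myoblasts alone, with 2.67 and 1.67. Region 10 (chr4:94714904-94715219) was in myocytes deposited as MyoD-null alone, with 1.76. None of these 7 exceeded 3.82, against at least 9.83 in region 2. Region 1 (chr4:94665989-94666287) was missing from wild-type myoblasts and had 3.62, 3.37 and 3.20 elsewhere. Region 8 (chr4:94702161-94702491) was missing from MyoD-null myoblasts and had 4.50, 4.23 and 3.49 in the rest. Region 17 (chr4:94761218-94761638) was in myocytes deposited as MyoD-null, with 3.12, and in wild-type myoblasts, with 2.98. Jun regions 15, 16 and 19 were in all 4 lists with folds of 2.79 to 5.39.

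Fosl1 had a constant set of moderate regions. Region 5 (chr19:5444752-5445548) had folds of 5.01 in myocytes deposited as MyoD-null, 6.12 in myocytes deposited as wild type, 5.12 in MyoD-null myoblasts and 4.69 in wild-type myoblasts. Region 8 (chr19:5456390-5457881) had 4.16, 5.88, 5.17 and 4.72. In both, the myocytes deposited as wild type were the highest list. Region 8 was lower in myocytes deposited as MyoD-null than as wild type by a ratio of 0.707 (0.554 to 0.901). None of the Fosl1 folds was above 6.12, and at most 4 peaks of a list there were above that list's median fold. The summits nevertheless held 45 to 162 reads in the 11 constant regions, over local backgrounds of 13.7 to 43.3 reads per base.

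The other Fosl1 regions named by their ratios were close between lists. Region 3 (chr19:5431983-5432406) had folds of 2.66, 3.19, 3.12 and 2.66 in myocytes deposited as MyoD-null, myocytes deposited as wild type, MyoD-null myoblasts and wild-type myoblasts. Region 4 (chr19:5432872-5433873) had 2.89, 2.97, 2.40 and 2.54, with both myocyte lists on top. Region 9 (chr19:5460395-5461021) had 3.18, 3.78, 3.03 and 3.56, and region 13 (chr19:5473627-5475541) had 4.83, 4.14, 4.62 and 4.33. No list was the highest throughout. Regions 11 (chr19:5466990-5467260) and 12 (chr19:5471953-5472182) were listed in myocytes deposited as wild type alone, with folds of 2.89 and 2.46. The remaining regions 1, 2, 6, 7 and 10 had folds of 2.57 to 4.27.

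Differentiation was compared within each genotype as deposited. In MyoD-null cells as deposited, 36 regions were shared, 21 higher and 15 lower in myocytes, with 73.2% of all shared regions higher. The median log2 ratio was 0.15 at Fos (15 regions), 0.00 at Jun (10) and -0.05 at Fosl1 (11), against 0.17 for all shared regions. None was at least 1.5-fold higher, against 9.27%, and Jun region 6 was the 1 region at least 1.5-fold lower, against 0.939%. After the median of all shared regions was subtracted, 0 were 1.5-fold higher (3.61% of all) and 2, Jun regions 6 and 14, were 1.5-fold lower (2.82% of all). In myocytes 6 of 45 peaks had no overlap in myoblasts (13.3%), against 16.2%, and in myoblasts 4 of 45 had none in myocytes (8.89%), against 24.7%. The counting interval lay wholly above 1 for 2 of the 36, Fos regions 22 and 25, against 11.6% of all shared regions, and wholly below 1 for Jun region 6, against 0.614%.

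In wild type as deposited, 38 regions were shared by myocytes and myoblasts, and 29 had a higher fold and 9 a lower fold in myocytes, with 85.1% of all shared regions higher. The median log2 ratio of myocytes to myoblasts was 0.39 at Fos (17 regions), 0.34 at Jun (10) and 0.23 at Fosl1 (11), against 0.35 for all shared regions. At least 1.5-fold higher in myocytes were 4 of the 38, all at Fos, against a background of 26.0%. They were region 1, region 7 at 1.77 (1.30 to 2.47), region 20 (chr12:86851534-86851877) at 1.66 (1.05 to 2.70) and region 24 (chr12:86864441-86865793) at 1.60 (1.09 to 2.45). At least 1.5-fold lower was 1 of the 38, Jun region 14, against 0.568%.

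Subtracting the median of all shared regions, which differs with the lists as a whole, left Fos region 1 alone at least 1.5-fold higher, against 7.76%. At least 1.5-fold lower were then 6 regions, 4 at Fos and 2 at Jun, against 4.74%. Of the peaks, 10 of 48 in myocytes had no overlap in myoblasts (20.8%), against 30.0% of that whole list, and 6 of 49 in myoblasts had none in myocytes (12.2%), against 18.0%. With lists of equal length the balance turned round: 3 of 38 myocyte peaks had no overlap in myoblasts (7.89%), against 25.1% of that whole list, and 5 of 44 myoblast peaks had none in myocytes (11.4%), against 23.1%. The counting interval lay wholly above 1 for 9 of the 38 ratios, against 29.1% of all shared regions, and wholly below 1 for 2, Fos regions 10 and 13, against 0.528%.

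**Figure D4:**
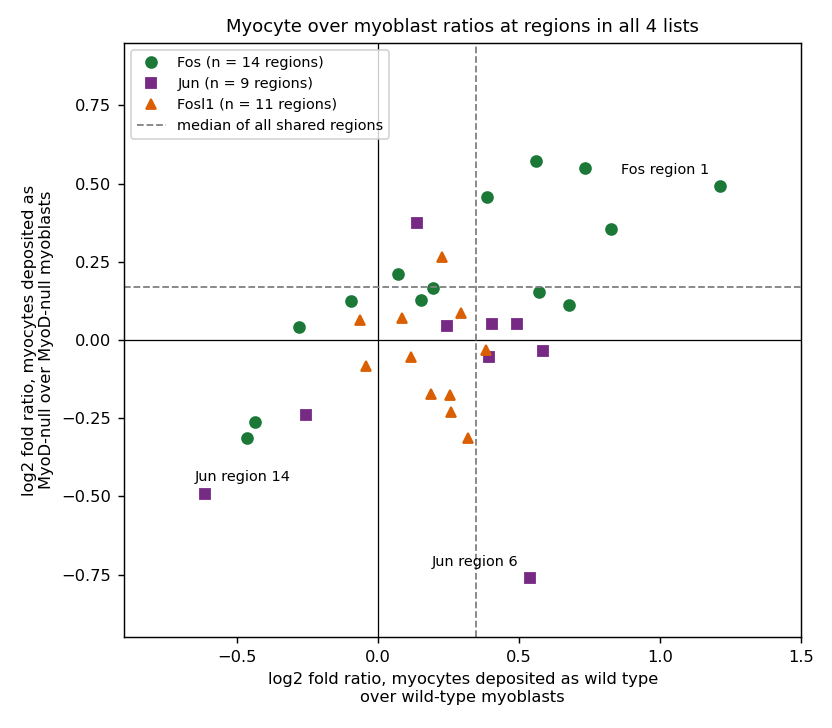
Log2 ratio of myocyte to myoblast fold in the lists deposited as MyoD-null (vertical axis) against that in the lists deposited as wild type (horizontal axis) for the 34 regions in all 4 lists, with dashed lines at the median of all shared regions. Most Fos points lie above 0 on both axes, and 7 of 11 Fosl1 points have opposite signs on the axes. Of these 7, only Fosl1 region 5 also lies on opposite sides of the dashed lines. Jun region 6 stands apart, at -0.76 as MyoD-null and 0.54 as wild type.

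The 34 regions in all 4 lists were set side by side in both genotypes. The fold was higher in myocytes in both for 17 (50%), lower in both for 5 (14.7%) and in opposite directions for 12 (35.3%), against 64.9%, 6.03% and 29.1% of all regions in 4 lists. Fos had 10 of 14 higher in both, Jun 4 of 9 and Fosl1 3 of 11. Fosl1 had 7 of 11 in opposite directions, and all of these but region 13 were lower as MyoD-null and higher as wild type. The median log2 ratio of all shared regions was itself 0.17 as MyoD-null and 0.35 as wild type. With these medians subtracted, Fosl1 regions 1, 3, 6, 8, 10 and 13 were below 0 in both pairs of lists. Regions 4 and 5 were then the Fosl1 regions with opposite directions. These counts depend on the scale, as the reads show.

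**Figure D5:**
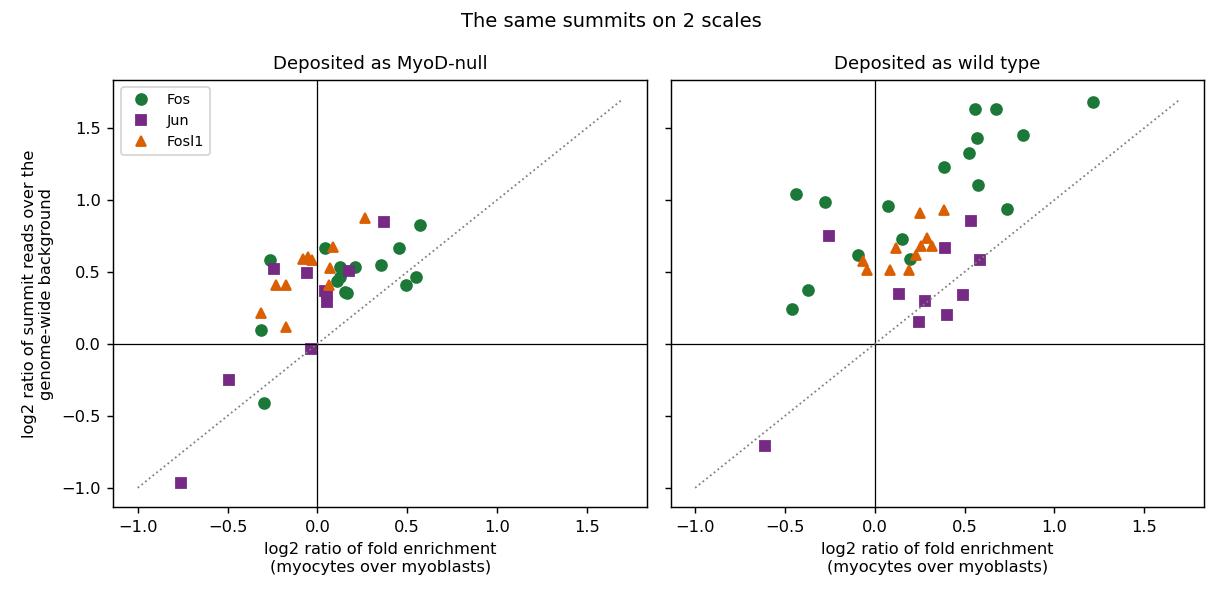
Log2 ratio of myocytes to myoblasts in summit reads over the genome-wide background of each list (vertical axis) against the log2 ratio of deposited fold (horizontal axis), with 36 shared regions deposited as MyoD-null on the left and 38 deposited as wild type on the right. The dotted line marks equal values. Most points lie above it, and several Fos and Fosl1 points with a fold ratio below 0 have a read ratio above 0.

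On the scale of summit reads over the genome-wide background, 32 of 36 regions were higher in myocytes as MyoD-null, against 76.7% of all shared regions, and 37 of 38 as wild type, against 90.7%. The median log2 ratio as MyoD-null was 0.47 at Fos, 0.36 at Jun and 0.53 at Fosl1, against 0.31 for all shared regions. As wild type it was 1.04 at Fos, 0.34 at Jun and 0.67 at Fosl1, against 0.61. All 17 Fos regions shared as wild type had more scaled reads in myocytes, including the 5 whose fold was lower. Jun region 14 was the exception in wild type, at a log2 ratio of -0.71.

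No region differed by 1.5-fold between MyoD-null and wild-type myoblasts. Of 38 shared regions 30 were higher and 8 lower in MyoD-null myoblasts, with 53.5% of all shared regions higher, and the median log2 ratio was 0.07 against 0.02 for all. The share of all shared regions past 1.5-fold was itself small, 0.414% higher and 0.247% lower, and no counting interval left out 1, against 0.232% of all shared regions above it and 0.138% below it. Jun region 6 had the highest log2 ratio, 0.41. In MyoD-null myoblasts 2 of 45 peaks had no overlap in wild type (4.44%), against 14.8%, and in wild-type myoblasts 7 of 49 had none in MyoD-null (14.3%), against 12.8%.

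In myocytes as deposited, 37 regions were shared, 14 higher and 23 lower in MyoD-null, with 30.0% of all shared regions higher. The median log2 ratio was 0.03 at Fos (15 regions), -0.08 at Jun (11) and -0.25 at Fosl1 (11), against -0.16 for all shared regions. At least 1.5-fold lower were 3, Fos region 1 and Jun regions 3 and 6, against 13.6%, and none was 1.5-fold higher, against 2.44%. Jun region 3 had a ratio of 0.659 (0.389 to 1.09). The counting interval lay below 1 for 3 regions, Fos region 1, Jun region 6 and Fosl1 region 8, against 12.7% of all shared regions, and above 1 for Fos region 9, at 1.27 (1.03 to 1.56), against 2.49%. After subtracting the median, 0 were higher (5.21% of all) and 2 lower (7.65% of all), Fos region 1 and Jun region 6. On the scale of summit reads 11 of the 37 were higher in MyoD-null, against 21.1% of all shared regions, and none of these was at Fos. Of the peaks, 4 of 45 as MyoD-null had no overlap as wild type (8.89%), against 13.1%, and 11 of 48 as wild type had none as MyoD-null (22.9%), against 32.0%. With lists of equal length the balance turned round here too: 6 of 45 as MyoD-null had no overlap as wild type (13.3%), against 22.3%, and 3 of 38 as wild type had none as MyoD-null (7.89%), against 23.2%.

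If the genotype is taken from the peak names, the myocyte ratios change sign (23 of 37 higher in MyoD-null, against 69.9% of all shared regions) and the pairs of the differentiation comparison change. MyoD-null then had 38 shared regions with a median log2 ratio of myocytes to myoblasts of 0.18, against 0.34 for all shared regions, and wild type 36 with 0.07, against 0.18. In MyoD-null 27 of the 38 were higher in myocytes, against 83.8% of all shared regions, and in wild type 25 of 36, against 75.4%. At least 1.5-fold higher were 3 of 38 in MyoD-null, against 25.9%, and 2 of 36 in wild type, against 9.37%. At least 1.5-fold lower were 0 in MyoD-null, against 0.676%, and 1 in wild type, Jun region 14, against 0.688%. At Jun region 14 both myocyte folds were below both myoblast folds, so exchanging the myocyte labels could not change that direction. Its ratios by peak names were 0.728 (0.408 to 1.20) in MyoD-null and 0.640 (0.390 to 1.004) in wild type, and both intervals include 1. In MyoD-null 10 of 48 myocyte peaks had no overlap in myoblasts, against 30.0%, and 2 of 45 myoblast peaks had none in myocytes, against 19.8%. In wild type these counts were 6 of 45, against 15.5%, and 8 of 49, against 22.3%. At Jun region 6 the log2 ratio was then 0.13 in MyoD-null and -0.35 in wild type, and at Fos region 1 it was 1.36 in MyoD-null and 0.35 in wild type. As ratios in the same order these were 1.09 (0.806 to 1.47) and 0.784 (0.511 to 1.17) at Jun region 6, and both intervals include 1. At Fos region 1 they were 2.56 (1.78 to 3.83) and 1.27 (0.810 to 2.01), and only the first interval leaves out 1. At both regions the genotypes were thus ordered the other way round than as deposited. Which genotype a difference belongs to cannot be told apart here.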

How the data were processed

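Chromatin accessibility was measured by ATAC-seq in 12 mouse samples, 3 in each of 4 groups, and deposited as 1 peak list per group. Per the submitters' processing notes the tools were MACS2 and deepTools and the build was mm9. The labels' names for the lists give a false discovery rate of FDR001, and the highest q in the lists was just under 0.01. No source used here names the aligner, other settings or the versions. The peak names refer to merged MAPQ30 alignments, so replicates were pooled before peaks were called. The fold enrichment deposited by the authors is a ratio of summit pileup to local background. The −log10 p and −log10 q values deposited by the authors belong to single peaks and served only to recover reads and to filter.

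Mitochondrial peaks, 2 or 3 per list, were left out. The whole-number pileup and local background that give both the fold and the −log10 p were recovered for 100% of peaks, within 0.01. Read totals per sample are unknown. The 95% intervals of reads are exact Poisson intervals, and those of ratios are exact binomial (Clopper-Pearson) intervals of the split of summit reads, with the local background held fixed. Both cover counting error only, since each group is 1 list. They treat reads as independent molecules, which reads from PCR duplicates are not, so they may be too narrow. With 1 list per group there was no test and no p-value. Members were selected by summit, and regions were merged and ratios taken over all lists in Python 3.11.15 (pandas 2.3.3, numpy 2.4.6, scipy 1.17.1), with figures from matplotlib 3.10.9. The overlap, merging, ratio and pileup steps were tested on simulated data with 20000 peaks, and 7 of 7 known quantities were recovered within 1 percent. The pileup step was simulated at backgrounds near the genome-wide level only, and the intervals were not part of that test.

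Named at each locus were the region with the highest fold in each list, each region missing from a list, and the regions with the extreme ratios of each comparison. Fos regions 7, 10, 20 and 24 and Jun region 12 were chosen after their values were seen. The members and lists were chosen with earlier results of these data known. The alternatives were a −log10 q of 5 or more, a fold of 5 or more, lists of equal length and a reciprocal overlap of 50%. Others were summits within 250 bp, genotypes by peak names and windows extended by 20 kb. The last were log2 fold ratios with the median of all shared regions subtracted, and summit reads over the genome-wide background. No mm9 annotation was used here, so peaks were not assigned to genes and the other AP-1 genes were not examined. Promoter sequences came from RefSeq (GRCm38.p6), which matched Fos and Jun by symbol.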

Additional observations from a re-analysis of the deposited data

Results flagged for a closer look

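Jun region 3, Jun region 6 and Fosl1 region 8 were picked out because their fold went in opposite directions with differentiation in the genotypes as deposited, with log2 ratios at least 1.5-fold apart, which held for 3 of the 12 regions with opposite directions. The log2 ratio of myocytes to myoblasts at Jun region 6 was -0.76 in MyoD-null and 0.54 in wild type, and wild type minus MyoD-null came to 1.30. At Fosl1 region 8 the ratios were -0.31 in MyoD-null and 0.32 in wild type, a difference of 0.63. On summit reads over the genome-wide background both were above 0 there, at 0.21 and 0.68. With the median of all shared regions subtracted from the fold ratios, both were below 0 there, at -0.48 and -0.03. At Jun region 3 the fold ratios without that step were -0.04 in MyoD-null and 0.58 in wild type, a difference of 0.62. With the median subtracted, opposite directions remained at Jun region 3 (-0.21 and 0.24) and at Jun region 6 (-0.93 and 0.19). As ratios, the counting intervals in MyoD-null and wild type were 0.631 to 1.02 and 0.978 to 1.59 at Fosl1 region 8. At Jun region 3 they were 0.577 to 1.60 and 0.928 to 2.43. All of these include 1, so each direction at those regions was within counting error. With 1 list per group the differences between genotypes were not tested. With genotypes by peak names the differences were -0.48 at Jun region 6, -0.37 at Fosl1 region 8 and -0.58 at Jun region 3, each with the sign turned.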

How the results depend on the processing

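No paired analysis was possible because each group is 1 merged list, and no replicate could be left out for the same reason. Counts below are peaks without overlap at the 3 loci together. With a −log10 q of 5 or more, 4 peaks of wild-type myoblasts had none in MyoD-null myoblasts, against 7 as reported. With a fold of 5 or more, 2 Fos, 2 Jun and 0 Fosl1 regions stayed in all 4 lists, and the counts were 1 for MyoD-null myoblasts against their myocytes, 1 for wild-type myoblasts against theirs, 0 for wild-type myoblasts against MyoD-null ones, 2 for myocytes deposited as MyoD-null against wild type and 5 for the reverse. With lists of equal length, 3 wild-type myocyte peaks lacked a myoblast peak (5 in reverse), and between myocytes 6 MyoD-null peaks lacked a wild-type one (3 in reverse). A reciprocal overlap of 50% gave 7 for MyoD-null myoblasts and 14 for wild-type myoblasts against their myocytes, and 11 for myocytes as MyoD-null against wild type. Summits within 250 bp gave 8, 14 and 9 for the same, and 4 for MyoD-null against wild-type myoblasts. Windows extended by 20 kb gave 11 for wild-type myoblasts against myocytes. By peak names, the counts were 10 for MyoD-null myocytes and 2 for MyoD-null myoblasts against each other, 6 for wild-type myocytes against myoblasts, and 11 for MyoD-null and 4 for wild type between myocytes. The Fosl1 medians of log2 ratio were then 0.18 in MyoD-null and 0.035 in wild-type differentiation and 0.25 between myocytes. With the median log2 ratio of all shared regions subtracted, the Fosl1 medians were -0.22 in MyoD-null and -0.12 in wild type. On summit reads, the differentiation medians were 0.47 (Fos), 0.36 (Jun) and 0.53 (Fosl1) in MyoD-null and 1.04 (Fos) and 0.67 (Fosl1) in wild type, and the Fos median between myocytes was -0.46. The cause of these changes was not tested. Of the 12 medians, 5 changed sign when the median of all shared regions was subtracted. By peak names 4 changed sign, on summit reads 3, with extended windows 1 and under each of the other alternatives 0. The 4 by peak names include the medians between myocytes, which are the same ratios inverted and change sign by construction. The only other one was the Fosl1 median of MyoD-null differentiation, from -0.05 to 0.18. Depth limits weak regions, since a summit at the genome-wide background needed 15 to 21 reads to be listed.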

Other observations

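At some regions the myocyte list deposited as wild type had 1 peak where the other lists had 2. Fos region 2 (chr12:86776919-86778855) was 1 peak in that list and 2 peaks in each of the other lists, and so were Fos region 7 and Fosl1 region 13. Fos region 12 (chr12:86826501-86828132) was 1 peak in both myocyte lists and 2 in both myoblast lists. Elsewhere 1 list alone had 2 peaks: wild-type myoblasts at Jun region 12, MyoD-null myoblasts at Fosl1 region 2 and myocytes deposited as MyoD-null at Fos region 24. Peaks of myocytes deposited as wild type were wider genome-wide, with a median of 498 bp against 398 to 483 bp in the other lists. The share of split regions over all regions was not counted. At Fos region 24 the listed peaks covered 776 bp in myocytes deposited as MyoD-null, 1169 bp in myocytes deposited as wild type, 369 bp in MyoD-null myoblasts and 246 bp in wild-type myoblasts. Peak counts at these regions therefore differ from region counts, and these regions were chosen after their values were seen.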
